A study of Mus musculus with 6 samples.

Results

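The genes described here encode 10 proteins of blood clotting: tissue factor (F3), coagulation factors VII (F7), X (F10), V (F5), XII (F12), XI (F11) and IX (F9), prothrombin (F2), protein C (Proc) and plasminogen (Plg). They were chosen by gene symbol, and all 10 were found among the 22068 symbols of the expression tables. Transcripts had been measured by sequencing polyadenylated RNA from livers of C57BL/6 mice that were 6 weeks old, in 3 libraries labelled as an Mst1/2 liver double knockout (dKO) and 3 labelled as control. By the labels the dKO mice were Mst1-/-; Mst2fl/fl; alb-Cre+/+ and the control mice Mst1-/-; Mst2fl/fl; alb-Cre-/-, so both groups lacked Mst1 in the whole animal. The comparison therefore asked what differed in Mst1-null liver when a Cre recombinase driven by the albumin promoter, which is active in hepatocytes and their precursors, could delete Mst2. The kinases Mst1 and Mst2 belong to the Hippo pathway, which keeps the coactivators YAP and TAZ in check. Whether the numbered replicates are different animals is not stated, and p-values here therefore reflect only how much these libraries vary, which may be technical.

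Blood clotting is a cascade of proteases that circulate as inactive zymogens, most of which are made and secreted by hepatocytes. Tissue factor, a membrane receptor that plasma does not normally meet, binds factor VII and starts the cascade. Factor X with its cofactor, factor V, converts prothrombin to thrombin, which cuts fibrinogen to fibrin. Factors XII, XI and IX form the contact, or intrinsic, branch. Protein C, once activated, inactivates cofactors of the cascade, and plasminogen gives plasmin, which dissolves fibrin. F3 is also counted among the target genes of YAP and TAZ.

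The values were taken as RPKM (reads per library, scaled for gene length and sequencing depth), a unit inferred from the values. Levels can then be compared between genes of a library, while comparison between libraries also depends on how they are scaled. The values summed to between 324034 and 352678 in the dKO libraries and to between 364571 and 368246 in the control libraries. Depth, estimated from the spacing of low values, was 21.15 to 24.4 M reads in the dKO and 17.35 to 25.05 M reads in the control libraries. On the first principal component of the tested genes (67.3% of the variance), dKO replicate 3 lay at 49.0, apart from dKO replicates 1 and 2 at 20.3 and 19.2, with the controls between -35.7 and -25.5. Stk3, the gene of Mst2, averaged 4.90 ± 0.57 RPKM in the dKO and 5.54 ± 0.41 RPKM in the control libraries (SD, n = 3 each; limma adjusted p = 0.424). Stk4, the gene of Mst1, averaged 5.51 ± 0.51 RPKM in the dKO and 4.95 ± 0.48 RPKM in the control libraries (limma adjusted p = 0.487). A level over a whole gene does not show whether part of it was deleted, so neither gene checked the labels. Each log2 change is the dKO mean less the control mean of log2(RPKM + 1), a scale that understates changes of low genes, and ± after them is the standard error. A gene was called when its limma p, adjusted over all 11062 tested genes by Benjamini-Hochberg, was under 0.05.

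All 10 clotting factor genes were expressed above the minimum for testing, a mean of 1 RPKM, and most were not called. Of the 10, 1 was called lower in dKO liver, F11, where 2.17% of all tested genes were called lower. None was called higher by limma, where 17.8% of all tested genes were, although F3 and F12 had an unadjusted p under 0.05, as did F11, F5 and F10 on the lower side. The median log2 change of the 10 genes was -0.28, beside 0.23 for all tested genes. The 3 dKO libraries lay entirely below the 3 control libraries for 6 of the 10 genes, where 6.73% of all tested genes did, and entirely above them for 3, where 38.3% of all tested genes did. F7 was the gene whose groups overlapped. A floor of 20 RPKM, chosen after the values were seen, takes in each of the clotting factor genes but F3. Among the 2139 tested genes averaging that level or more, the shares without overlap were 16.2% lower and 27.8% higher. Of those genes 6.03% were called lower and 13.7% higher, and their median log2 change was 0.07.

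The direction of the smaller differences depended on how libraries were scaled. RPKM is relative to all reads of a library, and median-ratio scaling moved the median log2 change of all tested genes by 0.26, to -0.03. After that scaling 55.5% of all calls were increases, against 89.1% without it, with 7.47% of tested genes called higher and 5.98% lower. F5, F10 and F11 were then called lower (limma adjusted p = 0.0423, 0.04997 and 0.0266). The median log2 change of the 10 genes was -0.59 on that scale. Proc, whose log2 change was positive as deposited, was at -0.23 after median-ratio scaling, and F2, negative as deposited, was at 0.015 under quantile normalization.

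Markers of hepatocytes and of cholangiocytes differed between the groups. Of 9 tested hepatocyte markers, each had a negative log2 change and 2 were called lower (0 after median-ratio scaling), and their summed level was 48802 to 56695 RPKM in the dKO and 58706 to 74406 RPKM in the control libraries. Of 7 tested cholangiocyte and progenitor markers, 7 were called higher (6 after median-ratio scaling). Among them Epcam, at a control mean of 0.359 RPKM, reached the minimum for testing through its dKO levels alone. The sum over the 10 listed was 379 to 1050 RPKM in the dKO and 38.6 to 91.4 RPKM in the control libraries. Of 10 tested Kupffer cell and macrophage markers 2 were called higher (20%, beside 17.8% of all tested genes) and none lower. After median-ratio scaling 2 were called higher and 1 lower. Of 10 tested endothelial and 10 tested stellate cell and fibroblast markers, none was called as deposited. The part of any of these markers in the values of the clotting factor genes was not tested. In bulk liver, fewer cells of a type and less RNA per cell cannot be told apart.

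**Figure D1:**
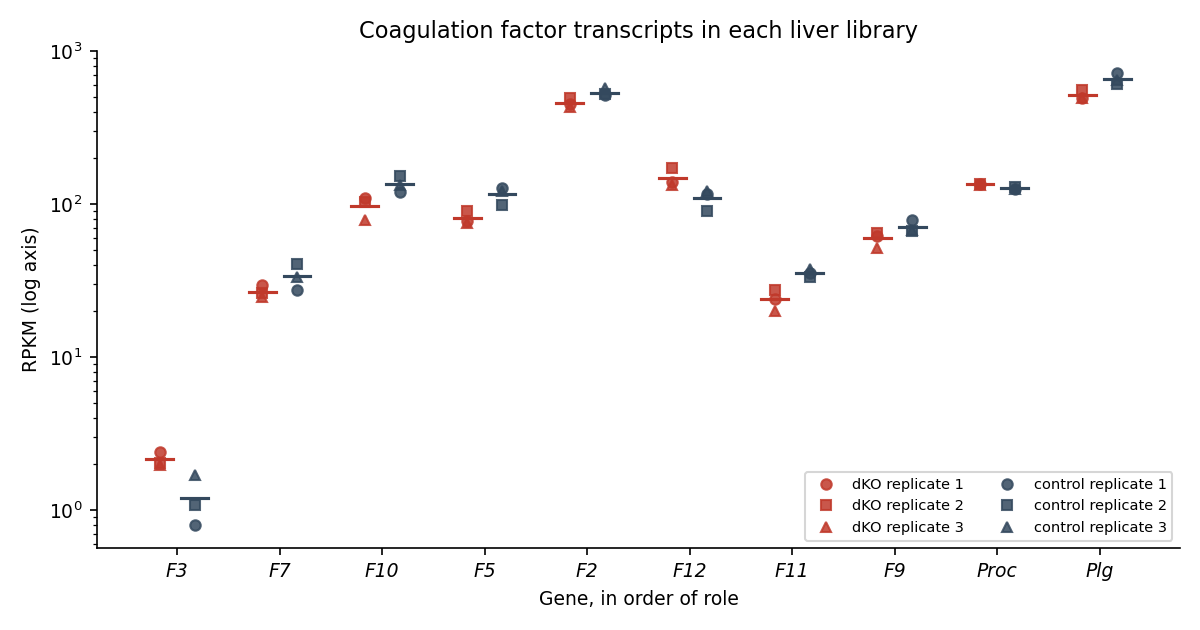
Level of each clotting factor gene in each library, in RPKM on a log axis, with genes in order of role. Points are libraries (dKO red, control dark blue, one marker shape per replicate) and bars are group means. F2 and Plg stand highest and F3 lowest in both groups, and the groups overlap at F7.

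**Figure D2:**
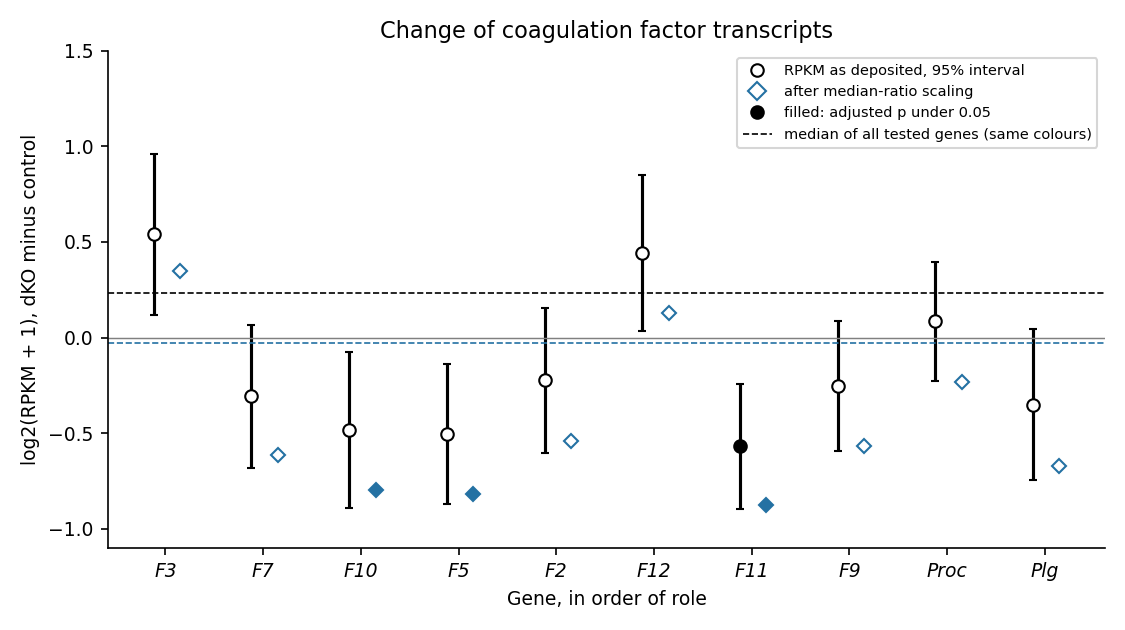
Difference between dKO and control libraries for each clotting factor gene on the log2(RPKM + 1) scale. Circles are values as deposited with 95% intervals from limma, diamonds are values after median-ratio scaling, filled symbols passed an adjusted p of 0.05, and dashed lines mark the median of all tested genes. F11 is filled on both scales, and F5 and F10 after scaling alone.

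F3, the gene of tissue factor, was the least abundant of the set and the one with the largest positive log2 change as deposited. It measured 2.41, 2.05 and 1.99 RPKM in dKO replicates 1, 2 and 3, against 0.799, 1.08 and 1.71 RPKM in control replicates 1, 2 and 3. Each dKO library lay above each control library, though control replicate 3 came close to the lowest dKO value. The means were 2.15 ± 0.23 RPKM in dKO and 1.20 ± 0.46 RPKM in control liver (SD, n = 3 each), a ratio of 1.80. The log2 change of 0.54 ± 0.19 had a 95% interval of 0.12 to 0.96 and a limma adjusted p of 0.0704, so F3 was not called. Without control replicate 3 the log2 change was 0.70 (limma adjusted p = 0.0545), and without dKO replicate 3 it was 0.58 (0.121). Scaling the libraries to equal RPKM sums gave 0.81 with a limma adjusted p of 0.0465, the single alternative of 14 in which F3 passed. That setting also enlarged all values before 1 was added, which lessens how far the scale understates a low gene such as F3. The part of each in the larger change was not tested. With the estimated depths and a transcript of 1872 bases, F3 stood for roughly 97, 81 and 91 reads in the dKO and 26, 51 and 66 reads in the control libraries. Counting alone would then give an error of 10.1% to 11.1% in the dKO and 12.3% to 19.6% in the control libraries.

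The F3 promoter is shown because F3 is the member counted as a YAP and TAZ target, and those of F11 and F12 because they encode successive proteases of the contact branch whose log2 changes had opposite signs. RefSeq promoter entries were present for 8 of the 10 genes, and the 250 bases before each annotated start in GRCm38.p6 were read. The expression files use mm9, so these coordinates are those of the sequence table and of no measured region. The windows are chr3:121723287-121723536 (plus strand) for F3, chr8:45262032-45262281 (minus strand) for F11 and chr13:55426805-55427054 (minus strand) for F12. Capitals mark matches to any of the motifs searched on both strands, which are GGAATG (TEAD, the DNA-binding partner of YAP and TAZ), TGANTCA (AP-1), GGGCGG (Sp1), TATAAA (the TATA box), GTTAAT (part of the HNF1 site) and CAAAGTCCA (HNF4).
F3: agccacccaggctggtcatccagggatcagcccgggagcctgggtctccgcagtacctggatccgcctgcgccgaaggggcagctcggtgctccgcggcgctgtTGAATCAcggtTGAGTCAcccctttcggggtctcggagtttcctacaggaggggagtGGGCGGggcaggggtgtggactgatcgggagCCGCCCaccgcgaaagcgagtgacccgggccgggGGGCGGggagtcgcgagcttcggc
F11: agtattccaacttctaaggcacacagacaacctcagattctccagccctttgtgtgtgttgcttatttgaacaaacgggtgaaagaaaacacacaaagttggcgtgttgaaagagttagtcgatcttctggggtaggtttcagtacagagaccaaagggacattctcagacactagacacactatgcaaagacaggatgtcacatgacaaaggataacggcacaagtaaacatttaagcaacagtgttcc
F12: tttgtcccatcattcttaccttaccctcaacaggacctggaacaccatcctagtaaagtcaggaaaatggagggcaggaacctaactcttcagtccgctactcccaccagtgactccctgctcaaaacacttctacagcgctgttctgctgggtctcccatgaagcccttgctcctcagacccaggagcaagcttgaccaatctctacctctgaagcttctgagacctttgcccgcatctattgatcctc

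The F3 window held 2 AP-1 matches, starting 146 and 135 bases before the start, and 3 Sp1 matches, and the windows of F11 and F12 held no match. None of the motifs overlapped another in the F3 window. At 70.0% G and C and with 24 CG pairs it differed from the other 7 windows, which had 42.8% to 57.6% G and C and 3 or 4 CG pairs, while the median of 32851 promoters was 52.4% and 6. AP-1 letters occurred in 6.75% of all promoters, Sp1 letters in 32.7%, TEAD letters in 12.6%, the TATA box in 12.4%, the HNF1 letters in 6.43% and the HNF4 letters in 0.384%. TEAD matches lay in the windows of F5 and F9, an AP-1 match in that of F2 and an Sp1 match in that of F5. A match is a description of letters and not evidence of binding, and a missing match says only that those letters are absent from that window.

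F7 encodes factor VII, the zymogen that binds tissue factor. It measured 29.9, 26.2 and 24.6 RPKM in dKO replicates 1, 2 and 3, against 27.4, 40.7 and 33.4 RPKM in control replicates 1, 2 and 3. The groups overlapped, because control replicate 1 lay below dKO replicate 1. The means were 26.9 ± 2.70 RPKM in dKO and 33.8 ± 6.68 RPKM in control liver, and the log2 change of -0.31 ± 0.16 was not called (limma adjusted p = 0.201, 95% interval -0.68 to 0.07). After median-ratio scaling it was -0.62 with a limma adjusted p of 0.0512. The ratio of F3 to F7 within a library, which multiplying the library by a factor does not change, was 0.0808, 0.0783 and 0.0809 in the dKO libraries. In the control libraries it was 0.0292, 0.0266 and 0.0510. This pair is receptor and ligand, and the dKO libraries agreed closely while control replicate 3 stood above the other controls.

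F10, F5 and F2 form the common pathway, and all 3 were lower in every dKO library than in any control library. F10, the gene of factor X, measured 109, 103 and 78.8 RPKM in dKO replicates 1, 2 and 3, against 119, 154 and 133 RPKM in control replicates 1, 2 and 3. Its log2 change was -0.48 ± 0.18 (95% interval -0.89 to -0.07) with a limma adjusted p of 0.0877. Without dKO replicate 3, which held the lowest F10 level, the change was -0.34 (limma adjusted p = 0.204). F5, the cofactor that factor X works with, measured 77.9, 90.3 and 75.1 RPKM in the dKO libraries, against 127, 98.5 and 121 RPKM in the control libraries. Control replicate 2 was the low control and dKO replicate 2 the high dKO library, so the gap between the groups was narrow. The means were 81.1 ± 8.12 RPKM in dKO and 115.7 ± 15.2 RPKM in control liver, and the log2 change was -0.50 ± 0.16 (limma adjusted p = 0.0574). Without control replicate 2 F5 passed, with a log2 change of -0.61 and a limma adjusted p of 0.0309.

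F2, which encodes prothrombin, was the second most abundant of the 10 genes. Its levels were 452, 491 and 435 RPKM in dKO replicates 1, 2 and 3, against 514, 525 and 570 RPKM in control replicates 1, 2 and 3. The dKO mean was 0.856 of the control mean, and the log2 change of -0.22 ± 0.17 was not called (limma adjusted p = 0.344, 95% interval -0.60 to 0.15). The ratio of F5 to F10 was 0.848 ± 0.124 in the dKO and 0.873 ± 0.215 in the control libraries, and the groups overlapped.

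The contact branch held the one call among the 10 genes. F12, whose protein, factor XII, starts the branch on charged surfaces, measured 140, 172 and 134 RPKM in dKO replicates 1, 2 and 3, against 116, 90.2 and 122 RPKM in control replicates 1, 2 and 3. Every dKO library was above every control library, with dKO replicate 2 the highest and control replicate 2 the lowest. The means were 148.7 ± 20.6 RPKM in dKO and 109 ± 16.9 RPKM in control liver. The log2 change of 0.44 ± 0.18 (95% interval 0.03 to 0.85) was not called, with a limma adjusted p of 0.108. It passed after the libraries were scaled to equal RPKM sums (0.55, limma adjusted p = 0.0421) and was 0.13 after median-ratio scaling (limma adjusted p = 0.743).

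F11 encodes factor XI, the protease that factor XII activates. It measured 24.1, 27.5 and 20.1 RPKM in dKO replicates 1, 2 and 3, against 35.6, 33.7 and 38.0 RPKM in control replicates 1, 2 and 3. No dKO library reached the lowest control library. F11 fell to 23.9 ± 3.73 RPKM in dKO liver, against 35.8 ± 2.16 RPKM in control liver (SD, n = 3 each), which is 0.669 of the control mean. The log2 change was -0.57 ± 0.14 (95% interval -0.90 to -0.24), with a limma adjusted p of 0.0283. The call was lost without dKO replicate 1 or 3 (limma adjusted p = 0.0718 and 0.0721) and without control replicate 1 or 3 (0.0815 and 0.0956). It was kept without dKO replicate 2 (limma adjusted p = 0.0296) or control replicate 2 (0.0325). The log2 change was -0.45 to -0.67 with 1 library left out and -0.45 without dKO replicate 3, which had the lowest level.

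F9 encodes factor IX, the substrate of activated factor XI and the protein missing in haemophilia B. Levels were 62.2, 65.1 and 52.1 RPKM in dKO replicates 1, 2 and 3, against 79.0, 67.2 and 68.0 RPKM in control replicates 1, 2 and 3. The groups did not overlap, though the lowest control library lay close to the highest dKO library. With a log2 change of -0.25 ± 0.15 (95% interval -0.59 to 0.09) F9 was not called (limma adjusted p = 0.24).

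Ratios between these transcripts within a library do not change when the library is multiplied by a factor, though quantile normalization can alter them. The pairs were chosen after the values were seen, so the ratios are given without a test. F12 stood at 5.81, 6.25 and 6.66 times the F11 level in dKO replicates 1, 2 and 3, against 3.26, 2.68 and 3.21 times in control replicates 1, 2 and 3. The groups were far apart, with means of 6.24 ± 0.42 in dKO and 3.05 ± 0.32 in control liver, a ratio of 2.05 between them. F12 relative to F10 was 1.55 ± 0.24 in the dKO and 0.825 ± 0.208 in the control libraries. F9 relative to F11 was 2.51 ± 0.13 in the dKO and 2.00 ± 0.21 in the control libraries.

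**Figure D3:**
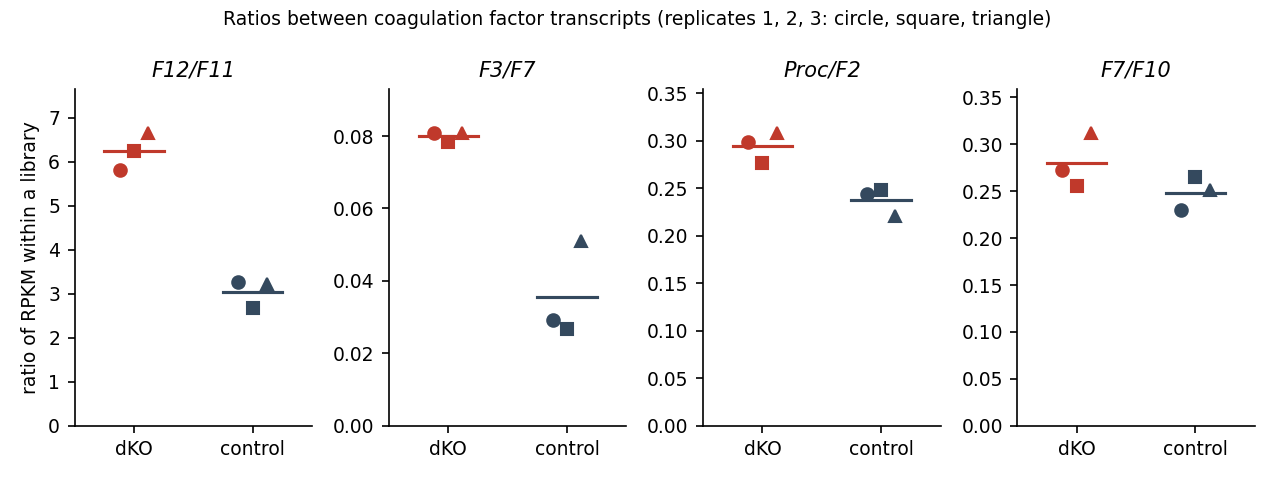
Ratios of RPKM between pairs of clotting factor genes within each library, dKO libraries left and control libraries right, with bars at the means and each axis starting at 0. F12/F11 and F3/F7 separate the groups widely, Proc/F2 by less, and F7/F10 overlaps.

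Proc encodes protein C, the zymogen of an anticoagulant protease that works with protein S. It was the steadiest of the 10 genes, at 135, 136 and 134 RPKM in dKO replicates 1, 2 and 3, against 125, 130 and 126 RPKM in control replicates 1, 2 and 3. The groups did not overlap because the spread was small, at 0.616% of the mean in dKO and 2.11% in control liver. The log2 change was 0.09 ± 0.14 (95% interval -0.23 to 0.40; limma adjusted p = 0.666). Relative to F2, the procoagulant zymogen, Proc stood at 0.294 ± 0.016 in the dKO and 0.237 ± 0.015 in the control libraries, without overlap.

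Plg, the gene of plasminogen, was the most abundant of the set. It measured 495, 557 and 497 RPKM in dKO replicates 1, 2 and 3, against 716, 612 and 651 RPKM in control replicates 1, 2 and 3. All dKO libraries lay below all control libraries, and dKO replicate 3 was not the lowest. The means were 516 ± 35.5 RPKM in dKO and 660 ± 52.5 RPKM in control liver, and the log2 change of -0.35 ± 0.17 (95% interval -0.75 to 0.04) was not called (limma adjusted p = 0.17).

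Summed over the 10 genes, clotting factor transcripts reached 1550 ± 111 RPKM in the dKO and 1826 ± 63.7 RPKM in the control libraries, or 0.453% ± 0.018 and 0.498% ± 0.019 of all RPKM. F2 and Plg made up 63.0% ± 1.11 of that sum in the dKO and 65.5% ± 0.60 in the control libraries. The order of levels in dKO liver was Plg, F2, F12, Proc, F10, F5, F9, F7, F11 and F3. The neighbours F12 and Proc, F10 and F5, and F7 and F11 overlapped between libraries there. In control liver the order was Plg, F2, F10, Proc, F5, F12, F9, F11, F7 and F3, with overlap of F10 and Proc, of Proc and F5, of F5 and F12, and of F11 and F7. By mean level F12 thus had rank 3 in dKO liver and rank 6 in control liver, a description of the same values as above.

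Some of these genes are neighbours in the genome. By RefSeq order in GRCm38.p6, F7, F10 and Proz follow each other on chromosome 8, and F11 lies beside Klkb1 on the same chromosome. Proz encodes protein Z, a cofactor for the inhibition of activated factor X, and measured 89.2, 97.5 and 77.2 RPKM in the dKO libraries, against 130.4, 119 and 122 RPKM in the control libraries. Its log2 change of -0.49 ± 0.15 was not called (limma adjusted p = 0.0504), was close in size to that of F10, and was called after median-ratio scaling (limma adjusted p = 0.0384). The ratio of F7 to F10 was 0.280 ± 0.029 in the dKO and 0.248 ± 0.018 in the control libraries, with overlap. Klkb1, the gene of plasma prekallikrein, a relative of factor XI, averaged 64.2 ± 6.18 RPKM in dKO and 77.5 ± 6.22 RPKM in control liver, a log2 change of -0.27 ± 0.14 (limma adjusted p = 0.2).

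Of 41 other genes of the clotting system in 6 lists, 31 were tested, of which 5 were called higher and 1 lower. These shares, 16.1% and 3.23%, were close to the 17.8% and 2.17% of all tested genes. Their median log2 change was -0.11, and after median-ratio scaling 3 were called higher and 4 lower. No gene of fibrin formation was called by limma in either direction, of 4 tested (2 had an unadjusted p under 0.05). Fgb, which encodes the beta chain of fibrinogen, averaged 1910 ± 90.03 RPKM in dKO and 2556 ± 395 RPKM in control liver (limma adjusted p = 0.181). The gamma chain gene, Fgg, measured 2288, 2999 and 1494 RPKM in the dKO libraries and spanned 2387 to 8043 RPKM among the controls (limma adjusted p = 0.117). Of 7 tested anticoagulant genes none was called by limma (2 had an unadjusted p under 0.05), among them Serpinc1, which encodes antithrombin, at 726 ± 76.2 RPKM in dKO and 940 ± 63.5 RPKM in control liver (limma adjusted p = 0.17). Serpind1, the heparin cofactor II gene, stood at 217 ± 12.5 and 279 ± 8.80 RPKM in dKO and control liver (limma adjusted p = 0.116).

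In the contact system and cofactor list, 1 of 5 tested genes was called. Kng2, a kininogen gene, rose to 127 ± 10.6 RPKM in dKO liver, against 83.8 ± 3.203 RPKM in control liver, with a log2 change of 0.60 ± 0.14 (limma adjusted p = 0.0232). Kininogen carries prekallikrein and factor XI in plasma. The call of Kng2 was lost after median-ratio scaling (log2 change 0.28, limma adjusted p = 0.234) and without control replicate 1 (0.0803), control replicate 3 (0.0742) or dKO replicate 2 (0.0562). Kng1, a closely similar copy with which Kng2 may share reads, had a log2 change of 0.16 ± 0.17 (limma adjusted p = 0.505). The level of each copy is uncertain for that reason.

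Vitamin K is needed to modify prothrombin, factors VII, IX and X and protein C. Of 7 tested genes of the vitamin K cycle and of secretion none was called by limma, and 1 had an unadjusted p under 0.05. Vkorc1, the vitamin K epoxide reductase gene, averaged 105 ± 7.31 RPKM in dKO and 111 ± 11.6 RPKM in control liver (log2 change -0.08, 95% interval -0.42 to 0.26). Mcfd2, which acts in the export of factors V and VIII, had a log2 change of 0.08 with a 95% interval of -0.28 to 0.44.

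Of 6 tested fibrinolysis genes 2 were called higher and 1 lower, beside 17.8% and 2.17% of all tested genes. After median-ratio scaling 1 was called higher and 1 lower, beside 7.47% and 5.98% of all tested genes. Cpb2, which encodes the carboxypeptidase TAFI that protects fibrin from plasmin, measured 64.6, 73.8 and 38.2 RPKM in the dKO libraries, against 110, 155 and 134 RPKM in the control libraries. The groups were well apart, and Cpb2 fell to 0.443 of its control mean, with a log2 change of -1.20 ± 0.25 (limma adjusted p = 0.016). It passed in each of 14 alternatives, with a log2 change of -0.92 (limma adjusted p = 0.0257) without dKO replicate 3, the lowest library. Anxa2, the gene of annexin A2, a cell surface protein that binds plasminogen, rose 4.56-fold to 33.9 ± 17.04 RPKM in dKO liver, against 7.43 ± 2.88 RPKM in control liver (limma adjusted p = 0.0192). Anxa2 lost its call without dKO replicate 1 (limma adjusted p = 0.0591) or control replicate 1 or 3 (0.0691 and 0.0622), and kept it without dKO replicate 3 (0.0337). S100a10, whose protein pairs with annexin A2, rose to 322 ± 16.1 RPKM in dKO liver, against 182 ± 67.1 RPKM in control liver (log2 change 0.89, limma adjusted p = 0.045). That call was lost in 8 of 14 alternatives, among them median-ratio scaling (0.18) and the removal of any library but control replicate 2, where limma adjusted p was 0.0801 to 0.122.

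Serpinf2 and Hrg were the most abundant fibrinolysis genes that were not called. Serpinf2, the gene of the plasmin inhibitor antiplasmin, averaged 310 ± 6.35 RPKM in dKO and 400 ± 16.9 RPKM in control liver (limma adjusted p = 0.125). Hrg, a histidine-rich plasma glycoprotein gene, averaged 341 ± 45.3 RPKM in dKO and 443 ± 77.2 RPKM in control liver (limma adjusted p = 0.2).

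The protease-activated receptors are membrane proteins that thrombin and other clotting proteases switch on by cutting them. Of the 4 receptor genes 2 reached the minimum for testing, F2r and F2rl1. F2r, the gene of the thrombin receptor PAR1, measured 27.6, 27.6 and 38.3 RPKM in dKO replicates 1, 2 and 3, against 13.1, 11.6 and 11.7 RPKM in control replicates 1, 2 and 3. The lowest dKO library was above the highest control, and the 2.57-fold rise was called (log2 change 1.28 ± 0.15, limma adjusted p = 0.00205). F2r passed in each of 14 alternatives, with a log2 change of 1.13 without dKO replicate 3 and 0.98 after median-ratio scaling. F2rl1, the gene of PAR2, which responds to the complex of tissue factor and factor VII, measured 2.25, 1.91 and 5.25 RPKM in the dKO libraries, against 0.230, 0.0433 and 0.398 RPKM in the control libraries. Its log2 change of 1.68 ± 0.29 was called (limma adjusted p = 0.00832), but it reached the minimum for testing through its dKO levels alone, and without dKO replicate 3 its mean was under that minimum. In the same libraries stellate cell and fibroblast markers summed to 191 to 330 RPKM in the dKO and 180 to 194 RPKM in the control group. The highest sum was that of dKO replicate 3, and the other dKO libraries lay within the control range. Dcn, the largest part of each sum, averaged 127 RPKM in dKO and 123 RPKM in control liver. Of the 10 markers, 5 lay higher in every dKO library than in any control library, where 38.3% of all tested genes did. None of the 10 was called by limma (4 had an unadjusted p under 0.05). Endothelial markers summed to 103 to 114 RPKM in the dKO and 95.4 to 103 RPKM in the control group. The part of these markers in the receptor levels, and that of the cholangiocyte markers given above, was not tested.

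**Figure D4:**
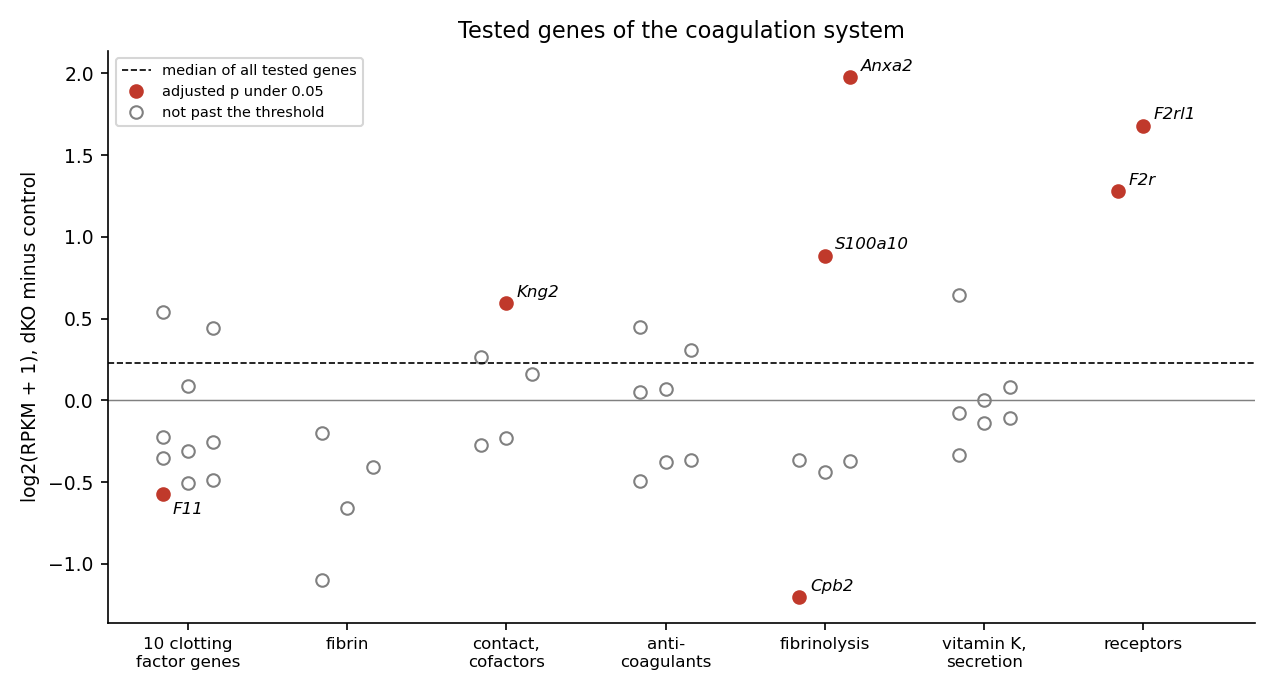
Change in log2(RPKM + 1), as dKO less control, of each tested gene of the clotting system, grouped by role. Filled red points passed a limma adjusted p of 0.05, and the dashed line is the median of all tested genes at 0.23. F11 is the one filled point among the 10 clotting factor genes, and both receptor genes are filled.

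F3 was set beside the target signature of YAP and TAZ that holds it. Of the 22 genes of that signature 19 were tested, and F3 was among the 9 that were not called. In dKO liver 9 (47.4%) were called higher and 1 (5.26%) lower, beside 17.8% and 2.17% of all tested genes. After median-ratio scaling 7 (36.8%) were called higher and 1 (5.26%) lower, beside 7.47% and 5.98% of all tested genes. Ctgf and Cyr61, which encode secreted matrix-associated proteins, rose 5.93-fold and 7.0-fold, and the scaffold gene Amotl2 rose 5.26-fold (limma adjusted p = 0.000758, 0.000945 and 0.000364). Crim1, Ankrd1, Gadd45a, Tgfb2, Asap1 and Lats2 were the others called higher. Ankrd1 and Tgfb2, at control means of 0.338 and 0.558 RPKM, reached the minimum for testing through their dKO levels alone. Asap1 and Lats2 each lost the call in 10 of 14 alternatives, among them median-ratio scaling and the removal of any single library. The ratio of F3 was 1.80. Nt5e, an ecto-nucleotidase gene of the same signature, fell to 0.464 of its control mean (limma adjusted p = 0.00832). Of all tested genes outside the set, Snx32, Cir1 and Stambpl1 followed F3 most closely over the 6 libraries, at root-mean-square differences of 0.0304, 0.0576 and 0.0623 in centred log2(RPKM + 1).

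Transcription factors of hepatocytes act on many clotting factor promoters. Of 14 tested, 3 were called higher (21.4%, beside 17.8% of all tested genes) and none lower by limma (1 of those below control had an unadjusted p under 0.05), and after median-ratio scaling 3 were higher and 2 lower. Hnf4a, a nuclear receptor gene of hepatocyte identity, averaged 114 ± 5.13 RPKM in dKO and 133 ± 12.8 RPKM in control liver (limma adjusted p = 0.295). Foxa1 rose to 10.1 ± 2.05 RPKM in dKO liver, against 4.58 ± 0.72 RPKM in control liver (limma adjusted p = 0.00818). Onecut1 rose to 12.5 ± 5.33 RPKM, against 4.17 ± 1.01 RPKM in control liver, and Cebpb rose to 5.79 ± 1.67 RPKM, against 2.50 ± 0.56 RPKM in control liver (limma adjusted p = 0.0144 and 0.017). Without control replicate 1, Onecut1 and Cebpb lost their calls (limma adjusted p = 0.0596 and 0.0627).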

How the data were processed

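Expression was measured in 6 libraries of liver RNA, 3 from dKO and 3 from control mice. The deposited RPKM values had been made by the authors from reads mapped to mm9, per the submitters' processing notes. The aligner, counter, annotation and filters are not given in the sources used here. RPKM was inferred from the values: among 3977 single-transcript symbols of GENCODE M21, 72.2% to 79.3% of the low values of a library lay within 0.15 of a whole read, at a depth chosen to fit those values. Some values were far below a single read, such as Gp1bb at 3.52e-06 RPKM in dKO replicate 1. Not every value is thus a scaled whole count. No pair of libraries was identical.

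Values were taken as log2(RPKM + 1), and the 11062 genes averaging 1 RPKM or more were fitted with limma 3.58.1 in R 4.3.3 (trend and robust moderation, no block), with Benjamini-Hochberg adjustment over all of them and a threshold of 0.05. The fit was also run on simulated data that gave every gene the same relative spread. Spread differs between genes in these data, so that run does not bear on the calls. Ratios, promoters and figures used Python 3.11.15. The clotting factor genes, the other lists and the marker lists were chosen with earlier results of these data known. Text names all 10 clotting factor genes, called genes of each list, up to 2 abundant genes of a list that were not called, the 3 genes nearest F3, and Stk3 and Stk4. Proz, F8, Vwf and the genes under the minimum were chosen outside that rule, after their values were seen. The 3 windows printed were chosen after the levels were seen.

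The settings varied were the pseudocount (0.1), the filter (none, or 1 RPKM in 3 libraries), the scaling (3 others), the moderation (not robust), the threshold (0.01), a block on replicate numbers and the omission of each library in turn. Scaling to equal RPKM sums also enlarged all values, so the pseudocount weighed less there on low genes. Isoforms and exons were not analysed here. A further gene is not reported here.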

Additional observations from a re-analysis of the deposited data

How the results depend on the processing

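Counts of clotting factor genes moved with most choices. With 1 library left out, 0 to 2 of them were called lower. F11 lost its call without a filter (0 called lower, adjusted p = 0.0513) and with a threshold of 0.01 (0), median-ratio scaling gave 3 called lower, and scaling to equal RPKM sums gave 2 called higher (F3 and F12). F2 turned to 0.015 under quantile normalization and Proc to -0.23 with median-ratio scaling.

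Of the other clotting genes, median-ratio scaling gave 3 higher and 4 lower, a threshold of 0.01 gave 2 and 0, and a pseudocount of 0.1 or no robust moderation gave 2 lower. Leaving out 1 library gave 3 to 8 higher and 1 to 3 lower. By list, the contact list had 0 higher and 1 lower with median-ratio scaling, 0 higher at a threshold of 0.01 and 0 to 1 higher with 1 library left out. Anticoagulants had 1 higher without a filter or with the 3-library filter, 1 lower with a pseudocount of 0.1, median-ratio scaling or no robust moderation, and 0 to 2 higher with 1 library left out. Fibrinolysis had 1 higher with median-ratio scaling, 0 higher and 0 lower at 0.01, and 0 to 2 higher with 1 library left out. The vitamin K list had 1 higher with the sum scaling, 1 lower with median-ratio scaling, and 0 to 1 higher with 1 library left out. Fibrin genes had 0 to 2 lower, and receptors 1 to 2 higher, with 1 library left out. The YAP and TAZ list had 5 higher at 0.01, 2 lower under quantile normalization, and 5 to 9 higher and 1 to 2 lower with 1 library left out. Hepatocyte factors had 1 higher at 0.01, 2 lower with median-ratio scaling, 1 lower under quantile normalization, and 1 to 3 higher with 1 library left out. Where not shown by a value above, the cause was not tested.

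Same-numbered libraries did not deviate together (correlations -0.0806, -0.101 and -0.00984), so the numbers were not taken as pairs. With a replicate block 0 clotting factor genes were called (F11 adjusted p = 0.0636), other clotting genes had 2 higher, the contact list 0 higher, fibrinolysis 0 higher, and the YAP and TAZ list 2 lower. The depth limits F3 most, at 26 to 97 estimated reads per library.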

Other observations

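Some clotting genes lay under the minimum mean of 1 RPKM and were tested only where the filter was varied. Those given here were chosen after their values were seen. Serpina5, the gene of protein C inhibitor, measured 2.24, 2.13 and 1.33 RPKM in dKO replicates 1, 2 and 3, against 0.0267, 0.0736 and 0.133 RPKM in control replicates 1, 2 and 3. Every dKO library was far above every control library. Without a filter its log2 change was 1.41 (limma adjusted p = 0.0096), and the filter of 1 RPKM in 3 libraries admitted it through its dKO libraries alone. Plat, the gene of tissue plasminogen activator, measured 1.19, 0.945 and 2.12 RPKM in the dKO libraries, against 0.205, 0.220 and 0.434 RPKM in the control libraries. Without a filter Plat passed, with a limma adjusted p of 0.0418, and its level was highest in dKO replicate 3, the library that stood apart. F13a1, the gene of the factor XIII A chain, which crosslinks fibrin, stayed at or under 0.233 RPKM in every library.

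Platelets carry clotting proteins, and 10 of their markers summed to 6.83 to 11.6 RPKM in the dKO and 4.82 to 7.33 RPKM in the control libraries. Of these only 2 were tested, Pf4 and Itgb3, and none was called by limma (1 had an unadjusted p under 0.05). The markers did not move together: Itgb3 was higher in every dKO library than in any control library, and Gp1ba, under the minimum, was lower. F8 and Vwf, made in liver mainly by endothelium, were not called: F8 averaged 5.14 ± 0.44 RPKM in dKO and 6.22 ± 0.69 RPKM in control liver (limma adjusted p = 0.223), and Vwf 1.86 ± 0.33 and 1.37 ± 0.19 RPKM (limma adjusted p = 0.255). F8 was called lower after median-ratio scaling (limma adjusted p = 0.0466).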
